A study of Mus musculus with 2 samples.

Results

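The nuclear-encoded genes of the mitochondrial respiratory chain and ATP synthase were followed in mouse hepatocytes 24 h after acetaminophen (APAP). Members were all genes of the count table whose symbol began with Nduf followed by a, b, c, s or v, with Uqcr, with Cox4 to Cox8 or with Atp5, or was one of Sdha to Sdhd, leaving out symbols with -ps. This gave 92 of 20823 listed genes: 40 for complex I, 8 Ndufaf assembly factors of complex I, 4 for complex II, 8 for complex III, 15 for complex IV and 17 for complex V. RNA was sequenced from 2 libraries of C57BL6J mouse liver, both at 8 wk of age. The APAP library came from a liver treated i.p. with 300 mg/kg acetaminophen in saline and taken at 24 h. The control library has the agent none in its label. In both, collagenase-perfused liver cells positive for CD31 or CD45 were removed by flow cytometry and 20000 hepatocytes with high surface Cxcr2 were sorted. How many animals each library holds is not stated in the labels.

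The respiratory chain passes electrons from NADH through complex I, and from succinate through complex II, by way of ubiquinone to complex III, cytochrome c and complex IV, where oxygen is reduced. Complexes I, III and IV pump protons, and complex V, the ATP synthase, uses their return flow to make ATP. Every complex except complex II mixes subunits encoded in the nucleus with subunits encoded in mitochondrial DNA, and the reactive product of acetaminophen is known to bind mitochondrial proteins in hepatocytes.

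The APAP library held 51009898 counts and the control library 52419864. Levels are given as CPM, counts per 1000000 after scaling by the trimmed mean of M-values (TMM), and ratios are APAP over control with a 95% counting interval. Because each condition had a single library, no ratio could be set against replicate spread and no test of the conditions was made; intervals cover counting error only. The direction of small ratios depended on the scaling: scaling by total counts raised every log2 ratio by 0.35, and with it the median of all genes lay at 0.37 in place of 0.02. Values are therefore also given relative to other genes of the same libraries, which no scaling alters. The 5 hepatocyte markers summed to 69239 CPM in APAP and 50961 CPM in control, with Alb and Apoa1 higher in APAP at ratios of 1.57 and 1.59, and Serpina1a, Apob and Ttr at 0.972, 0.896 and 0.814, while Cxcr2, the receptor used for the sort, had 2 counts in APAP and 0 in control. The 7 pericentral markers were all at least 2-fold lower, against 7.09% of all genes. They summed to 1603 CPM in APAP and 11501 CPM in control. Of 7 periportal markers, 1 was at least 2-fold higher, against 10.7% of all genes. Their sums were 9369 CPM in APAP and 8472 CPM in control, but directions were mixed. Intervals of 5 lay wholly above 1 and those of 2, Cps1 at 0.713 and Ass1 at 0.736, wholly below. Marker sums of 4 other cell types were low and higher in APAP. Endothelial markers summed to 18.9 CPM in APAP and 15.8 CPM in control. Of 7 macrophage markers 5 were listed, and they summed to 5.93 and 0.0645 CPM. Cd68 alone held 287 of their 341 counts in APAP. Of 5 cholangiocyte markers only Sox9 and Spp1 were listed, and they summed to 34.3 and 3.01 CPM. The 7 stellate and fibroblast markers summed to 1.44 and 0.344 CPM. The 7 endothelial markers were mixed: intervals of 5 lay wholly above 1, that of Kdr at 0.896 held 1, and that of Stab2 at 0.479 lay wholly below. Of 5 red cell markers only Alas2 was listed, and it was lower, at 36.4 CPM in APAP and 95.7 CPM in control. The 2 listed of 5 lymphocyte markers had 0 counts in APAP and 3 in control. Ly6g, the 1 listed of 6 neutrophil markers, had 2 counts in APAP and 0 in control. The macrophage markers Csf1r, Lyz2, Cd5l and Marco were at 0 counts in control. The part of any of these in the results below was not tested, and in bulk libraries fewer cells of a type and less RNA per cell cannot be told apart.

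As a group the members kept close together. Of the 90 members with at least 20 counts over both libraries, 0 were at least 2-fold higher or lower with an interval that excluded 1, against 17.8% of the 14096 genes with at least 20 counts (10.7% higher and 7.09% lower). With total counts, 2 members, Atp5g1 and Ndufaf5, reached 2-fold higher, against 17.3% of all genes. The median log2 ratio of the members was -0.22, which is 0.24 below the median of all genes, and 79 of 90 members lay below that median, where by construction 7048 of 14096 genes did. Part of this gap went with abundance. Genes with at least 1000 counts had a median of -0.06, and 4044 of 7050 lay below the median of all genes. Members with at least 1000 counts had a median of -0.21, and 69 of 78 lay below it. The interquartile range of the members was 0.22 log2 units, compared with 0.77 for all genes. Of the members, 80 (88.9%) lay within 1.25-fold of their own median, compared with 43.3% of all genes around theirs. Among genes with at least 1000 counts, where counting error is small, the shares were 92.3% of 78 members and 53.8% of 7050 genes, and the interquartile ranges 0.20 and 0.59 log2 units. The interval lay wholly below 1 for 63 members and wholly above 1 for 7, against 33.0% and 34.1% of all genes, but with total counts these numbers became 8 and 59, against 14.7% and 60.2% of all genes. Whether an interval excludes 1 depends on depth. With TMM and at least 1000 counts, intervals of 60 of 78 members lay wholly below 1 and of 5 wholly above. Of the 7050 genes at that minimum, 3210 lay wholly below and 2466 wholly above. At 1.5-fold, 4 members differed, 3 higher and 1 lower, against 30.7% of all genes.

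**Figure D1:**
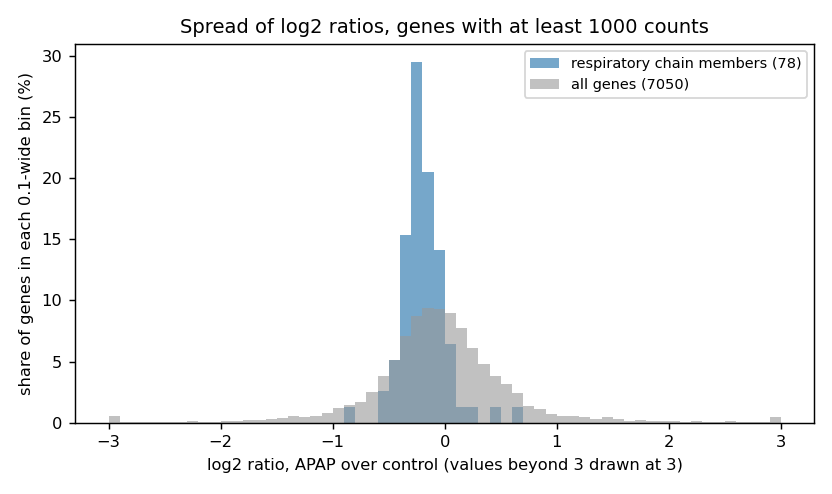
Shares of genes in each bin of the log2 ratio of APAP over control, for 78 members and for all 7050 genes with at least 1000 counts. The members form a narrower peak, with an interquartile range of 0.20 log2 units compared with 0.59.

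The complexes differed little from each other. Median log2 ratios were -0.20 for complex I, -0.33 for complex II, -0.25 for complex III, -0.27 for complex IV and -0.18 for complex V. Set against the median of the other 4, complex I was 0.05 higher, complex V 0.04 higher, complex III lower by a difference of -0.04, complex IV by -0.08 and complex II by -0.11. Summed over members, CPM ratios were 0.871 (0.864 to 0.878) for complex I, 0.738 (0.728 to 0.748) for complex II, 0.843 (0.833 to 0.854) for complex III, 0.842 (0.833 to 0.851) for complex IV and 0.852 (0.847 to 0.858) for complex V. Complex II was thus the lowest by both measures, but it has only 4 genes and its sum is mostly Sdha: without that gene the summed ratio was 0.832. With total counts the sums of complexes I, III, IV and V lay above 1 and that of complex II below 1.

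The 7 nuclear-encoded core subunits of complex I, which carry the flavin and iron-sulfur clusters of the arm that reaches into the matrix, had a median log2 ratio of -0.22. Ndufv1, the NADH-binding subunit, had 110 CPM in APAP and 138 CPM in control, a ratio of 0.799 (0.771 to 0.827). Ndufs3 at 0.764 and Ndufs8 at 1.02 were the ends of the core range, so every core subunit lay within 1.25-fold of the core median. Ndufs1, the largest core subunit and a carrier of iron-sulfur clusters, had a ratio of 0.836 (0.802 to 0.871), Ndufv2 of 0.859 (0.819 to 0.902) and Ndufs7 of 0.868 (0.820 to 0.919).

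Accessory subunits of complex I surround the core and are needed for its stability. The 33 members named after complex I outside the core are called accessory here. They include Ndufa4, Ndufa4l2, Ndufb4c and Ndufs6b, which are taken up below. Their median log2 ratio was -0.17, 0.05 above that of the core. Subunits of the matrix arm (16 genes, core included) and of the membrane arm (19 genes) had medians of -0.15 and -0.22. Ndufb3 (ENSMUSG00000026032 on chromosome 1), a small membrane-arm subunit, stood lowest: it had 1588 counts and 27.6 CPM in APAP, against 2293 counts and 49.3 CPM in control, a ratio of 0.560 (0.525 to 0.598). It was the only member at least 1.5-fold lower with an interval that excluded 1, against 13.1% of all genes. Relative to the other complex I subunits summed, Ndufb3 had a ratio of 0.638 (0.598 to 0.681, Woolf interval of the counts), which no scaling changes. The next lowest, Ndufb5, had a ratio of 0.724 (0.676 to 0.776) and Ndufa1, an X-linked subunit, of 0.774 (0.728 to 0.822).

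At the other end of complex I, Ndufa8 had a ratio of 1.04 (0.999 to 1.09), Ndufc1 of 1.12 (1.02 to 1.23) and Ndufa4l2 of 1.56 (1.07 to 2.30). Ndufa4l2, a relative of Ndufa4 that hypoxia-inducible factors are known to induce, had few counts, 85 in APAP and 44 in control, or 1.48 and 0.946 CPM. Ndufa4, named after complex I but now assigned to complex IV, had 131 CPM in APAP and 154 CPM in control, a ratio of 0.851 (0.824 to 0.879). Within the counts of this pair, Ndufa4l2 made up 1.12% (exact binomial interval 0.893 to 1.38) in APAP and 0.611% (0.444 to 0.820) in control. Ndufb2 had only 212 and 207 counts in APAP and control and shares exon bases with 3 other annotated genes, so its value is uncertain, as are those of Ndufb4c and Ndufs6b, whose reads may be shared with Ndufb4 and Ndufs6.

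The 8 Ndufaf genes encode proteins that help build complex I and are not part of the finished enzyme. Their median log2 ratio of -0.23 lay 0.01 below that of the core subunits, but they were spread more widely. The standard deviation over genes was 0.44 log2 units, compared with 0.15 for the core and 0.23 for the 33 genes called accessory here. Ndufaf5 (ENSMUSG00000027384 on chromosome 2), an arginine hydroxylase that acts on Ndufs7, had 293 counts and 5.10 CPM in APAP, against 140 counts and 3.01 CPM in control, a ratio of 1.69 (1.38 to 2.09). Ndufaf7, a methyltransferase needed for complex I assembly, had 15.1 CPM in APAP and 11.2 CPM in control, a ratio of 1.35. Both assembly enzymes stood above the core: relative to the summed core subunits Ndufaf5 had a ratio of 1.93 (1.58 to 2.36) and Ndufaf7 of 1.54 (1.38 to 1.72). Ndufaf6 stood lowest, with 6.44 CPM in APAP and 9.35 CPM in control, a ratio of 0.688 (0.597 to 0.792).

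The remaining 5 assembly factors were near the core. Ratios were 0.783 for Ndufaf8, 0.802 for Ndufaf3, 0.843 for Ndufaf4, 0.863 for Ndufaf1 and 0.994 for Ndufaf2. Because the 8 values are few and wide, the comparison with the core turned with the statistic: the core minus the assembly factors was 0.01 by medians and -0.14 by means. A wider list of 48 assembly factors of all complexes, of which 45 were listed and 44 had at least 20 counts, had a median log2 ratio of -0.12, with 0 genes past 2-fold, 13 intervals wholly above 1 and 15 wholly below, against 17.8%, 34.1% and 33.0% of all genes. Those farthest up at 1.5-fold were Sdhaf1, a factor for the iron-sulfur clusters of complex II, at 1.84 (1.36 to 2.52), and Coa4 at 1.57 (1.18 to 2.12). Those farthest down were Dmac2 at 0.535 (0.489 to 0.586) and Cmc1 at 0.632 (0.550 to 0.727).

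Complex II, the succinate dehydrogenase, is also an enzyme of the tricarboxylic acid cycle, and all of its subunits are nuclear encoded. Ratios of its catalytic subunits were lower than those of its membrane anchors, by 0.40 in median log2 ratio. Sdha (ENSMUSG00000021577 on chromosome 13), the flavoprotein that oxidises succinate, had 21499 counts and 374 CPM in APAP, against 25792 counts and 555 CPM in control, a ratio of 0.674 (0.662 to 0.687). Sdhb, the iron-sulfur subunit, had 94.9 CPM in APAP and 136 CPM in control, a ratio of 0.699 (0.674 to 0.725). The anchors Sdhc and Sdhd, which hold the ubiquinone site, were nearer to 1, with ratios of 0.912 (0.880 to 0.945) and 0.904 (0.871 to 0.938). Free of scaling, Sdha relative to Sdhc had a ratio of 0.740 (0.711 to 0.770), and Sdhb relative to Sdhd of 0.773 (0.734 to 0.814). Sdha and Sdhb kept ratios below 1 with total counts, whereas the anchors lay above 1.

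Complex III had the most uniform members of the 5 complexes, with a standard deviation over genes of 0.13 log2 units. Uqcrc1 and Uqcrc2, the large core proteins facing the matrix, had nearly equal ratios of 0.818 (0.796 to 0.841) and 0.820 (0.793 to 0.848). Uqcrfs1, the Rieske iron-sulfur protein that hands electrons to cytochrome c1, had 106 CPM in APAP and 123 CPM in control, a ratio of 0.861 (0.831 to 0.893). The accessory subunits ran between Uqcr11 at 0.736 (0.706 to 0.768) and Uqcr10 at 0.954 (0.906 to 1.01). Next to the lower end stood Uqcrb, which lies near the ubiquinone site, at 0.764 (0.725 to 0.805), and next to the upper end Uqcrq at 0.899 (0.872 to 0.926) and Uqcrh, the hinge protein at cytochrome c1, at 0.906 (0.871 to 0.942). Cyc1, the cytochrome c1 gene that the symbol rule does not cover, had a ratio of 0.819 (0.793 to 0.845), inside the range of the members. Cycs, the mobile cytochrome c, lay above all of them at 1.14 (1.09 to 1.20).

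None of the Cox members counted with complex IV belongs to its catalytic core, which is encoded in mitochondrial DNA. Of the 13 with at least 20 counts, ratios of 12 lay between 0.647 and 0.920 and only Cox7a2 lay above 1. Cox4i1, the largest of them and a site of ATP regulation, had 181 CPM in APAP and 213 CPM in control, a ratio of 0.852 (0.828 to 0.875). Cox5a had a ratio of 0.739 (0.708 to 0.771), Cox6c of 0.751 (0.721 to 0.782) and Cox7a2l of 0.759 (0.721 to 0.798). Below Cox7a2 at the upper end came Cox5b, a zinc-binding subunit, at 0.920 (0.888 to 0.953) and Cox6b1, which faces the intermembrane space, at 0.889 (0.857 to 0.922). Cox7a2 had 77.8 CPM in APAP and 73.9 CPM in control, a ratio of 1.05 (1.01 to 1.10), and relative to the other complex IV members summed it stood at 1.27 (1.21 to 1.33).

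Isoforms of complex IV known from heart, skeletal muscle or testis were near absent. Cox7a1, the heart and muscle form, had 12 counts in APAP and 15 in control, 0.268% (0.138 to 0.467) and 0.435% (0.244 to 0.716) of the Cox7a1 and Cox7a2 counts, and its ratio of 0.647 (0.277 to 1.48) shows no difference detectable at this depth. Cox6a2 had 3 counts in APAP and 0 in control, which at a floor of 3 counts allows a share of up to 0.0345% of the Cox6a1 and Cox6a2 counts in control. Cox6b2 had 2 counts in APAP and 0 in control, with a limit of 0.0536% at the same floor; exact binomial upper bounds were 0.0424% for Cox6a2 and 0.0659% for Cox6b2. These 2 genes are at or under the floor of 3 counts, so no ratio is given. The symbols Cox4i2, Cox7b2, Cox8b and Cox8c fall under the rule but matched no row of the count table. Cox6c2 had 175 counts in each library, and its reads may be shared with Cox6c.

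In complex V the F1 head, which holds the catalytic sites, was again uniform. Atp5b (now Atp5f1b), the catalytic beta subunit, had 49396 counts and 859 CPM in APAP, against 47755 counts and 1027 CPM in control, a ratio of 0.837 (0.826 to 0.847). Atp5a1 (Atp5f1a), the alpha subunit, had 660 CPM in APAP and 856 CPM in control, a ratio of 0.771 (0.760 to 0.782). The gamma, delta and epsilon subunits of the rotor stalk, Atp5c1, Atp5d and Atp5e, had ratios of 0.791, 0.895 and 0.940. The 5 F1 genes had a median log2 ratio of -0.26, the 4 genes of the peripheral stalk that holds the head still (Atp5f1, Atp5h, Atp5j and Atp5o) one of -0.14, and 4 small membrane subunits (Atp5j2, Atp5k, Atp5l and Atp5mpl) one of -0.18. Atp5l, subunit g, had the next lowest ratio after Atp5a1 of the complex at 0.779 (0.733 to 0.829), and Atp5o, the subunit that joins the stalk to the head, stood at 0.973 (0.909 to 1.04), below only Atp5g1 and Atp5g2. Atp5s, a further factor of the complex with 157 and 153 counts in APAP and control, had a ratio of 0.830 (0.660 to 1.04). Atpif1, the inhibitor that blocks reverse ATP hydrolysis and that lies outside the symbol rule, had 197 counts in APAP and 119 in control, a ratio of 1.34 (1.06 to 1.70).

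The c-ring was the exception. Its subunit, whose ring turns as protons pass, is made from 3 genes that encode the same mature protein behind different import sequences. Atp5g1 (Atp5mc1, ENSMUSG00000006057 on chromosome 11) had 6428 counts and 112 CPM in APAP, against 3258 counts and 70.1 CPM in control, a ratio of 1.60 (1.53 to 1.67). It was the member of any complex with the highest ratio among those with at least 1000 counts. Atp5g2 (Atp5mc2) had 46.4 CPM in APAP and 39.3 CPM in control, a ratio of 1.18 (1.11 to 1.25). Atp5g3 (Atp5mc3) had 218 CPM in APAP and 249 CPM in control, a ratio of 0.874 (0.852 to 0.897).

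The make-up of c-subunit counts thus differed between the libraries. Atp5g1 took 29.7% (exact binomial interval 29.1 to 30.4) of the counts of the 3 genes in APAP and 19.5% (18.9 to 20.2) in control. Atp5g3 took 57.9% (57.3 to 58.6) in APAP and 69.5% (68.8 to 70.2) in control, and Atp5g2 took 12.3% and 11.0%. Relative to Atp5g3, Atp5g1 had a ratio of 1.83 (1.74 to 1.92) and Atp5g2 of 1.35 (1.27 to 1.44), whatever the scaling. Summed, the 3 genes had 376 CPM in APAP and 358 CPM in control, a ratio of 1.05. At 1.5-fold, Atp5g1, Ndufaf5 and Ndufa4l2 were the 3 higher members, against 17.6% of all genes. Atp5g1 and Ndufaf5 share no exon bases with another gene of the annotation used; Ndufa4l2 does so with 1.

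**Figure D2:**
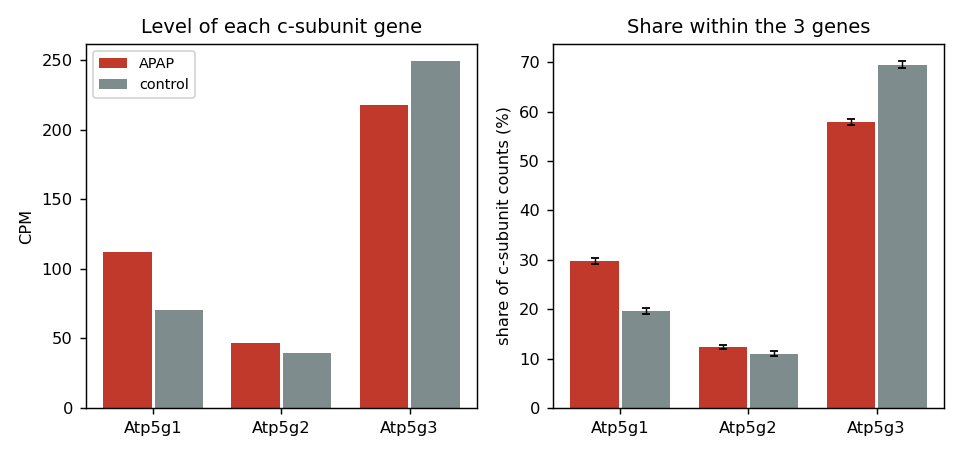
Levels in CPM (left) and shares of the summed counts in percent with exact binomial intervals (right) of the 3 genes for the c-subunit of ATP synthase, APAP beside control. Atp5g1 stands at 112 CPM in APAP and 70.1 CPM in control, and its share at 29.7% and 19.5%.

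Per kilobase of exon, the highest subunit in both was Atp5b, at 448 CPM per kilobase in APAP and 536 in control. The median subunit stood at 69.8 CPM per kilobase in APAP and 80.1 in control, and complex I had the lowest median in both, at 41.5 in APAP and 48.6 in control. Medians were 83.2 CPM per kilobase in APAP and 106 in control for complex II, and 76.5 and 88.3 for complex V. The median of complex IV stood above that of complex III in APAP and below it in control. Medians were 110 CPM per kilobase in APAP and 112 in control for complex IV, and 99.9 and 124 for complex III. The middle gene of complex IV differed, however, being Cox5a in APAP and Cox7a2 in control. Cox5a had 110 CPM per kilobase in APAP and 148 in control, and Cox7a2 had 118 and 112. Across the 82 subunits with at least 20 counts, log2 CPM in APAP and control had a Pearson correlation of 0.99 across genes, which are not independent and share both libraries. Exon lengths come from an annotation of another build, so differences in level between genes are approximate.

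**Figure D3:**
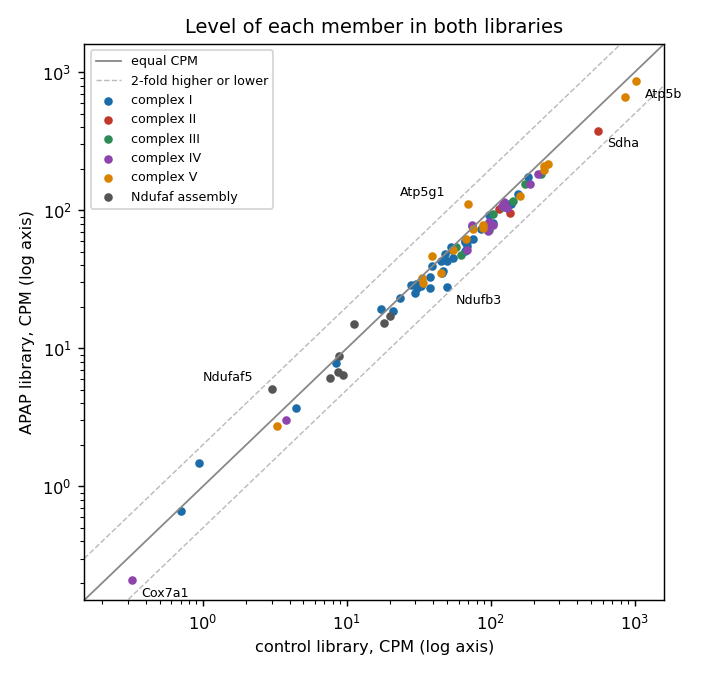
CPM of each member with at least 20 counts in APAP (vertical) and control (horizontal), both on log axes, coloured by complex. Points run between 0.209 and 859 CPM in APAP, most of them a little below the line of equal CPM, and none crosses the dashed 2-fold lines. Of 90 members 11 lie above the line, Atp5g1 and Ndufaf5 among them, and Ndufb3 has the lowest ratio.

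Respiratory chain genes are known targets of NRF1, GABPA (an ETS factor) and YY1. Promoters are shown for genes whose ratios stood apart and, for comparison, for the other c-subunit genes. The promoters of Sdha, of the 3 c-subunit genes and of Ndufb3 are given as the 250 bases before the transcription start from RefSeq on build GRCm38.p6, with matches to the NRF1 core motif in capitals; its sixth base was free and the others had to be as in those capitals, on either strand.
Sdha (chr13:74350241-74350490, minus strand): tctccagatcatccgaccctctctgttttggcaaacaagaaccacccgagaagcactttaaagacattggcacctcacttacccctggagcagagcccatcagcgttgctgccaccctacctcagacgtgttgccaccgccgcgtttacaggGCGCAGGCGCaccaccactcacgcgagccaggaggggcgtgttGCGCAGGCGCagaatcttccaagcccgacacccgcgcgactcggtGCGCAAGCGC
Atp5g1 (chr11:96075632-96075881, minus strand): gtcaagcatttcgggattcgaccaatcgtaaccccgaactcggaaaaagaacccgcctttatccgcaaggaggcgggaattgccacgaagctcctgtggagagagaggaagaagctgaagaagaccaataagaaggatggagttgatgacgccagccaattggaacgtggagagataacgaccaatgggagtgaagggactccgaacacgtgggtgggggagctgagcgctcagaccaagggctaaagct
Atp5g2 (chr15:102671048-102671297, minus strand): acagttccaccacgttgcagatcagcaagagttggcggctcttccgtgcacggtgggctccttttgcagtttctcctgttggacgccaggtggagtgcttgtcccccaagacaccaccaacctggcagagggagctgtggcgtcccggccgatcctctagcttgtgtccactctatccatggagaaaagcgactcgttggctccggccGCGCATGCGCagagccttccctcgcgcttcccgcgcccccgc
Atp5g3 (chr2:73911327-73911576, minus strand): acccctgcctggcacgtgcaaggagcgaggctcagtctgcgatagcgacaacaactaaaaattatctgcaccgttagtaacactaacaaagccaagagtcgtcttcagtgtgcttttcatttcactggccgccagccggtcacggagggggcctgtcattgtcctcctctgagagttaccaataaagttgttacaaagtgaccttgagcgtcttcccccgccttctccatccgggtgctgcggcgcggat
Ndufb3 (chr1:58586147-58586396, plus strand): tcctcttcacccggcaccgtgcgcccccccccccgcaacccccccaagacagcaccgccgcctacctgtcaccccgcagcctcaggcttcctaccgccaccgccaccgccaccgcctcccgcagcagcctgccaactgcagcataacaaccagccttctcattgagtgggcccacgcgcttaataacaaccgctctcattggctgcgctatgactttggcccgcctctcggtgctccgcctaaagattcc

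The Sdha promoter held 3 matches and that of Atp5g2 held 1, while that of Atp5g3 had its match among the first 50 bases after the start, not printed here. The Atp5g1 and Ndufb3 windows held none of these letters, which says nothing about binding of the factor. Windows of 300 bases (250 before and 50 after the start) could be matched to 73 of the 92 members, giving 78 windows. The NRF1 letters were found in 25.6% of these windows, compared with 4.60% of all 32851 promoter windows and 9.97% of those of genes with at least 20 counts. The YY1 letters AAGATGGCG were found in 10.3%, compared with 1.40% and 3.03%, and the ETS letters CCGGAAGT in 6.41%, compared with 3.89% and 8.15%, each on either strand; 2 of the 78 windows held the NRF1 letters together with either of the others. Members with an NRF1 match had a median log2 ratio of -0.15 (19 genes) and those without of -0.22 (53 genes), so both lay in the narrow band of the whole set.

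The mitochondrially encoded partners of these subunits stood far below them. All 13 were at least 2-fold lower in APAP, against 7.09% of all genes, with a median log2 ratio of -1.49. Ratios ran from 0.276 for mt-Co1, the catalytic subunit of complex IV, to 0.424 for mt-Nd3. With total counts 10 of 13 were at least 2-fold lower, against 4.44% of all genes, and ratios ran from 0.350 to 0.539. Together they took 7.44% of all counts in APAP and 17.6% in control. Complex by complex, summed ratios were 0.358 for the 7 mt-Nd genes and 0.871 for nuclear complex I, 0.343 for mt-Cytb and 0.843 for nuclear complex III, 0.294 for the 3 mt-Co genes and 0.842 for nuclear complex IV, and 0.367 for both mt-Atp genes and 0.852 for nuclear complex V. The median of the nuclear members exceeded that of the mitochondrially encoded subunits by 1.28 log2 units, a 2.42-fold gap that no scaling alters.

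Genes that feed or regulate the chain were more scattered than its subunits. Among 19 electron carriers and ubiquinone-linked genes, 3 passed 2-fold, all downward, against 17.8% of all genes in either direction: Prodh, the proline dehydrogenase, at 39.8 CPM in APAP and 191 CPM in control, a ratio of 0.208 (0.198 to 0.218), Gpd2, the mitochondrial glycerol-3-phosphate dehydrogenase, at 0.364 (0.342 to 0.387), and Coq8a, an atypical kinase of ubiquinone synthesis, at 0.437 (0.426 to 0.448). With total counts Coq8a stood at 0.555, short of 2-fold. The interquartile range of this list was 0.60 log2 units. Of 17 genes of the tricarboxylic acid cycle and pyruvate dehydrogenase, 0 passed 2-fold, against 17.8% of all genes in either direction. Their median log2 ratio was -0.21, next to -0.22 for the respiratory chain, with Dlat at 0.550 and Idh2 at 1.30 at the ends of the list.

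Of 18 regulators of mitochondrial biogenesis, 1 passed 2-fold, downward, against 7.09% of all genes, and the median log2 ratio was -0.24. That was Esrrg, an orphan nuclear receptor, with 65 counts in APAP and 225 in control, a ratio of 0.234 (0.175 to 0.309). Ppargc1a, the coactivator PGC-1alpha that fasting induces in liver, had the highest ratio, with 5.51 CPM in APAP and 3.46 CPM in control, or 1.59 (1.31 to 1.94). Gabpa had 23.5 CPM in APAP and 40.2 CPM in control, a ratio of 0.585 (0.545 to 0.628), Yy1 a ratio of 0.708 (0.674 to 0.744) and Nrf1 one of 0.764 (0.666 to 0.877). Tfam, which packages mitochondrial DNA and helps start its transcription, had a ratio of 0.924 (0.858 to 0.995). Polrmt, the mitochondrial RNA polymerase, had one of 1.01 (0.937 to 1.09).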

How the data were processed

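RNA counts of 1 APAP and 1 control library were compared. The submitters' processing notes name HISAT2, Subread and build mm39. Not given in the sources used here are versions, annotation, strand setting and the handling of read pairs. The deposited table of raw counts was not normalized by the authors. The deposited normalized signal is those counts divided by the authors' size factor of 1.12 for APAP and 0.894 for control; it served as an alternative. Symbols from a GENCODE table matched 20679 of 20823 identifiers.

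TMM factors (edgeR 4.0.16, R 4.3.3) were 1.13 for APAP and 0.887 for control, so 1 count was worth 0.0174 CPM in APAP and 0.0215 CPM in control. Ratios carry exact conditional Poisson 95% intervals (scipy 1.17.1, Python 3.11.15). Log2 ratios use a prior of 0.5 counts. A gene counted as higher or lower if its ratio reached 2 in that direction, the interval excluded 1 and both libraries together held at least 20 counts. Reads carried no molecular identifiers. Low counts were mostly even (70.6% of counts from 1 to 20 in APAP, 68.3% in control), so intervals are too narrow if mates were counted separately. With 1 library per group no test was made. Exon lengths and overlaps come from GENCODE vM21 on another build, and 32 of 92 members share exon bases with another gene there, which without a known strand setting leaves their reads open to sharing. DESeq2 1.42.0 size factors, total counts and totals without genes above 1% of a library were alternatives. Named genes were core subunits, isoform pairs, assembly factors, the ends of each complex and members or list genes past 2-fold; list genes short of it, and the lines at 1.5-fold, were chosen after their values were seen. The values of 1 gene that the rule names are not reported here. The members and lists were chosen with earlier results of these data known, and the arms of complex I, the 1000-count minimum, the motifs and the ratios between genes were added after seeing the values. The steps were tested on simulated data with known folds.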

Additional observations from a re-analysis of the deposited data

How the results depend on the processing

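Count minimums of 1 and 100, a prior of 5 counts, moving Ndufa4 and Ndufa4l2 to complex IV and adding symbols with -ps left every value they touched within 0.1 log2 units, 1.5 times or the counting interval. Scaling decided the direction of the small ratios. With total counts, median log2 ratios were 0.13 for all members, 0.15, 0.014, 0.094, 0.072 and 0.16 for complexes I to V, 0.12 for the Ndufaf genes and 0.13 for the complex I core. Summed ratios were 1.11, 0.937, 1.07, 1.07 and 1.08 for complexes I to V. At least 2-fold higher were 2 members, and 59 intervals lay above 1 and 8 below. Of 90 members, 72 had a ratio above 1, compared with 11 in TMM scaling. The median log2 ratio of all genes was 0.37 with total counts, so most genes lay above 1 there too, and 0.02 in TMM scaling. Of all genes, 17.3% were at least 2-fold higher with total counts, with 60.2% of intervals above 1 and 14.7% below. With totals without genes above 1% of a library, the medians were 0.13, then 0.14, 0.010, 0.091, 0.068 and 0.16, then 0.11 and 0.12. The sums were 1.10, 0.935, 1.07, 1.07 and 1.08, and 2 members were at least 2-fold higher, with 57 intervals above 1 and 8 below. Of all genes, 17.2% were then at least 2-fold higher, with 59.9% of intervals above 1 and 14.8% below. With totals without the 13 mitochondrially encoded subunits, chosen after seeing the data, the medians were -0.040, then -0.021, -0.15, -0.074, -0.10 and -0.0053, then -0.052 and -0.042. The sums were 0.985, 0.834, 0.953, 0.951 and 0.963, with 23 intervals above 1 and 34 below. Of all genes, 47.4% of intervals then lay above 1 and 22.1% below. DESeq2 size factors and the authors' normalized signal gave sums of 0.861, 0.832 and 0.842 for complexes I, IV and V. A fold threshold of 1.5 gave 3 higher and 1 lower members. Halved counts left 4 intervals above 1. Means gave -0.061 for the Ndufaf genes and -0.14 for the core minus the Ndufaf genes, and that difference was -0.096 with all assembly factors. Without the most abundant member the sums were 0.863, 0.832 and 0.859 for complexes I, II and V. Apart from the scaling itself, the cause was not tested. Leaving out members that share exon bases, also chosen after seeing the data, moved no difference of medians by over 0.1. No paired analysis was possible because each group held 1 library. Depth limits the isoforms under 20 counts, and 1 library per group leaves the spread between animals unknown.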
